A study of Mus musculus with 12 samples.

Results

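The extracellular proteases described here are the matrix metalloproteinases (Mmp), the ADAMTS proteases and their tissue inhibitors, the TIMPs, in cells from mouse bone marrow cultures. All genes whose symbol in the array's annotation is Mmp, Adamts or Timp followed by a number alone were taken, which gave 35 of the 18193 genes measured: 16 Mmp, 15 Adamts and 4 Timp genes. Relatives with a letter in the symbol, such as Mmp1a and the Adamtsl genes, were not members. RNA was hybridized to 12 mouse arrays, 3 in each of 4 groups. All mice were female C57BL/6 of 6 weeks, and all cells came from primary cultures of whole bone marrow. The groups were c-kit+ cells (named stem cells in the labels) from control cultures, c-kit+ cells from cultures given 17β-estradiol (17βE) at 1 nM for 1 week, and CD44+ cells (named stromal cells) from control and from estradiol cultures. Controls were described as non-treated, with no vehicle named. The design asks how estradiol alters expression in each cell type.

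Matrix metalloproteinases are zinc enzymes that cut collagens, gelatin, elastin and other matrix proteins, and most are made as inactive precursors from which a prodomain must be removed. ADAMTS proteases carry thrombospondin repeats and include the aggrecanases, which cut the large proteoglycans aggrecan and versican, and enzymes that trim procollagen. TIMPs bind the active sites of these enzymes; in marrow, fibroblast-like stroma, macrophages, neutrophils and osteoclasts are known to make different sets of them.

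Several of the Mmp genes share a pair of promoter motifs, shown here because it groups members whose array values were very different. RefSeq's table (GRCm38.p6, 250 bases before to 50 after each start) listed no promoter for 14 members, among them Mmp2, Mmp9, Adamts4 and Adamts5. It held 24 promoters of 21 members. These were searched on both strands for the AP-1 site, the letters TGAGTCA or TGACTCA, which binds Fos and Jun proteins, and for the TATA box, TATAAA or its reverse TTTATA; AP-1 and TATA letters cannot overlap each other. An AP-1 match was present in 5 of the 24 promoters, against 5.2% of all 32851 promoters in the table, and a TATA match in 8 of the 24, against 13.6% of all. All 5 with an AP-1 match, those of Mmp13, Mmp12, Mmp3, Mmp10 and Mmp7, also had a TATA match, a pair found in 0.941% of all promoters. These 5 genes belong to a run of Mmp genes on chromosome 9, in RefSeq order Mmp13, Mmp12, Mmp1b, Mmp3, Mmp1a, Mmp10, Mmp8, Mmp27, Mmp20 and Mmp7. Their windows from 80 bases before to 20 after the annotated start follow 5′ to 3′, all on the plus strand, with AP-1 and TATA matches in capitals: Mmp13 at chr9:7272434-7272533, Mmp12 at chr9:7347294-7347393, Mmp3 at chr9:7445742-7445841, Mmp10 at chr9:7502262-7502361 and Mmp7 at chr9:7692010-7692109.
Mmp13: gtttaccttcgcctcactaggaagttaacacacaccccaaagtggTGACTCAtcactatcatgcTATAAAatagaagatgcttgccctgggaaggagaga
Mmp12: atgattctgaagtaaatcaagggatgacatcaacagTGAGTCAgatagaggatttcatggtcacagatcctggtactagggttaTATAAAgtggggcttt
Mmp3: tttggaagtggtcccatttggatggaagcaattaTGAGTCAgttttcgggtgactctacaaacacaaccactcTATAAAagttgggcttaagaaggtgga
Mmp10: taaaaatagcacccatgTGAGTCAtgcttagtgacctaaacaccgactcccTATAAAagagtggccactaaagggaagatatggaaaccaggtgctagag
Mmp7: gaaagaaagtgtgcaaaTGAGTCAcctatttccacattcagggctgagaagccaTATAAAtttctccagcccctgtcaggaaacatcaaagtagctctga

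In each of these windows the TATA match lay downstream of the AP-1 match. The AP-1 match began 35 bases before the annotated start in Mmp13, 44 in Mmp12, 46 in Mmp3 and 63 in both Mmp10 and Mmp7. The TATA match began 29 bases before that start in Mmp10, 26 in Mmp7, 16 in Mmp13 and 7 in Mmp3. In Mmp12 it began at base 5 after the start. Mmp7 had a further TATA match 123 bases before the start, upstream of its window and its AP-1 match. For comparison, the same window is given for Mmp14, which rose with estradiol over both cell types, at chr14:54431518-54431617 (plus strand), and for 3 members that were lower in c-kit+ cells, Timp1 at chrX:20870086-20870185 (plus strand), Timp3 at chr10:86300332-86300431 (plus strand) and Adamts1 at chr16:85803094-85803193 (minus strand).
Mmp14: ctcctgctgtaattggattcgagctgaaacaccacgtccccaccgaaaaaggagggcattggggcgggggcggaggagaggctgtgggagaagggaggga
Timp1: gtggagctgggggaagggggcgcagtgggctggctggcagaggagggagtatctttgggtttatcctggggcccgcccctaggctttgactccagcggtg
Timp3: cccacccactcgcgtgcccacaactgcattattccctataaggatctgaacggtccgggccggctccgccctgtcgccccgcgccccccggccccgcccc
Adamts1: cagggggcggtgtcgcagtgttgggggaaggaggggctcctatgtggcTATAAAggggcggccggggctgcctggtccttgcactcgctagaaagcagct

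None of these 4 promoters held the AP-1 letters, and of the 4 only Adamts1 held a TATA match. A match is a run of letters, not a measured binding site. The 5 genes with both motifs differed in level and span on the arrays. Mmp13 values spanned 1.82 on the log2 scale over the 12 arrays (8.62 to 10.44) and Mmp12 values 1.05 (10.21 to 11.26). Mmp7 values spanned 0.38 (4.98 to 5.36), Mmp3 values 0.33 (3.53 to 3.85) and Mmp10 values 0.26 (4.4 to 4.66). All Mmp3 values lay under 3.98, the highest reading of Y-linked genes, which female mice lack. A small span near background cannot show whether a gene varied along with the others.

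The labelled cell types were set against their defining markers. Kit, the gene of the c-kit receptor, lay between 3.79 and 4.22 on all 12 arrays (log2 values) and its difference between c-kit+ and CD44+ control cultures was -0.04 (SE 0.12, adjusted p = 0.938). These Kit values are near background, since probe sets of Y-linked genes, which female mice lack, read up to 3.98. The mean of the 7 measured stem and progenitor markers was lower in c-kit+ cells. It was 5.31 to 5.46 against 5.5 to 5.73 in control cultures. With estradiol it was 5.26 to 5.5 against 5.59 to 5.68, and neither pair of groups overlapped. The whole list did not share this gap, since its median difference was -0.16 in control and -0.01 in estradiol cultures. Of these markers, Cd34 was called, lower in c-kit+ cells with estradiol (-1.43, SE 0.32, adjusted p = 0.0318; -1.28, adjusted p = 0.06, in control cultures). Cd44 lay between 11.76 and 12.46 on every array. Macrophage markers were bright in every group: Csf1r, the receptor for macrophage colony-stimulating factor, ranged from 13.86 to 14.11, and the mean of the 8 macrophage markers from 11.79 to 12.4. In control cultures that mean was 12.1 to 12.23 in c-kit+ and 11.79 to 11.96 in CD44+ cells, so those groups did not overlap. The mean of 10 mesenchymal stroma markers separated the cell types, although not every marker did. It was 5.22 to 5.54 in c-kit+ control and 5.11 to 5.89 in c-kit+ estradiol arrays. In CD44+ cells it was 6.58 to 7.53 in control and 6.86 to 7.77 in estradiol arrays. In these bulk samples, fewer cells of a type and less RNA per cell cannot be told apart. The 3′ minus 5′ control probe set value of Gapdh, which grows as RNA is degraded or amplified shorter, was 4.62 to 5.35 in c-kit+ and 2.83 to 4.14 in CD44+ control cultures, and 4.23 to 6.17 and 3.32 to 4.31 with estradiol. The highest group mean of 8 of the 35 members was at or under the Y-linked value of 3.98 (Adamts3, Adamts6, Adamts15, Adamts18, Adamts19, Adamts20, Mmp3 and Mmp20), although probe sets differ in their own background.

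Timp1, Timp3, Mmp2, Mmp23 and Adamts1 were higher in CD44+ than in c-kit+ cells, with Timp1 and Mmp2 furthest apart in control cultures. In control cultures 5 of the 35 members (14.3%) passed the test between c-kit+ and CD44+ cells, all lower in c-kit+ cells, against 2.3% of all 18193 genes (limma, Benjamini-Hochberg adjusted p under 0.05 over all genes, used throughout). In estradiol cultures 8 of the 35 (22.9%) passed, again all lower in c-kit+ cells, against 2.65% of all genes. The 5 members called in control cultures, Timp1, Timp3, Mmp2, Mmp23 and Adamts1, were also called in estradiol cultures, where Adamts4, Adamts5 and Adamts12 joined them. The median difference of the 35 members was -0.117 in control and -0.08 in estradiol cultures, beside 0.005 and 0.026 for all genes.

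**Figure D1:**
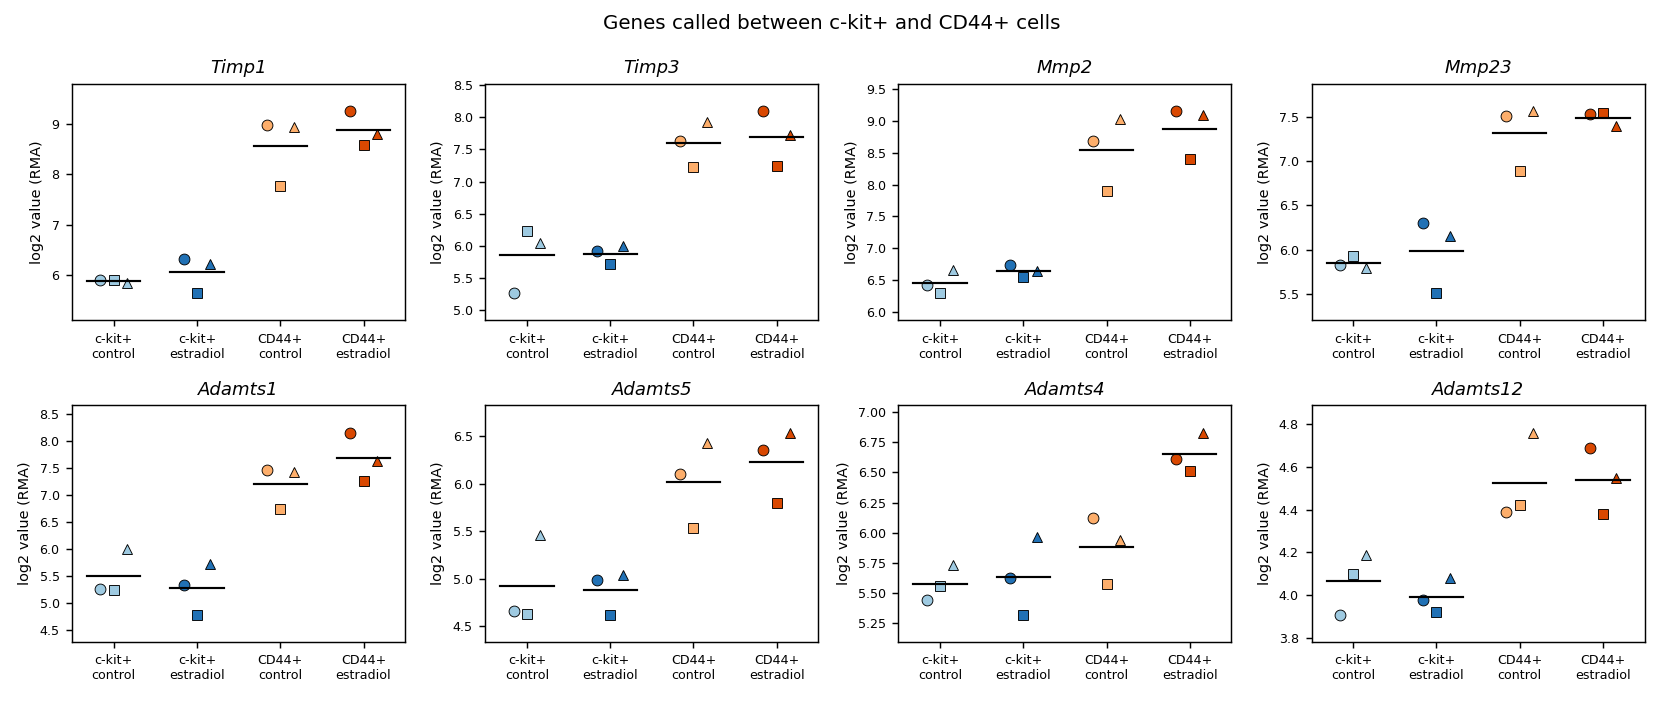
Log2 RMA values (vertical axis) of the 8 genes called between c-kit+ and CD44+ cells, on each of the 12 arrays. Circles, squares and triangles are replicates 1, 2 and 3, and black lines are group means of 3 arrays; for Timp1, the 6 c-kit+ arrays sit between 5.65 and 6.33 and the 6 CD44+ arrays between 7.76 and 9.26.

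Among the inhibitors, Timp1, a secreted TIMP made readily by activated fibroblasts, had values of 5.9, 5.91 and 5.84 in c-kit+ control and 8.99, 7.76 and 8.94 in CD44+ control arrays. With estradiol the values were 6.33, 5.65 and 6.22 in c-kit+ and 9.26, 8.59 and 8.81 in CD44+ arrays. Every CD44+ array was higher than every c-kit+ array. The log2 difference was -2.67 in control cultures (SE 0.29, 6.38-fold lower in c-kit+ cells, adjusted p = 0.000475) and -2.82 in estradiol cultures (SE 0.29, 7.06-fold, adjusted p = 0.000286).

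Timp3, the TIMP that binds to the matrix and also inhibits ADAMTS enzymes, read 5.27, 6.23 and 6.05 in c-kit+ control and 7.63, 7.22 and 7.93 in CD44+ control arrays. Its estradiol values were 5.92, 5.71 and 5.99 in c-kit+ and 8.1, 7.24 and 7.72 in CD44+ arrays. The groups did not overlap in either culture. Timp3 differed by -1.74 (SE 0.26, 3.35-fold lower in c-kit+ cells, adjusted p = 0.00304) without and -1.81 (SE 0.26, adjusted p = 0.00155) with estradiol. Of its 4 probe sets, 3 passed in both cultures in a fit of all probe sets; the dimmest did not (-0.2 in control, adjusted p = 0.39).

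The other 2 inhibitors did not pass. Timp2, which takes part with Mmp14 in activating pro-Mmp2, ranged only from 10.47 to 11.01 over the 12 arrays. Its difference was 0.02 (95% interval -0.3 to 0.35, adjusted p = 0.968) in control and -0.19 (-0.52 to 0.13, adjusted p = 0.821) in estradiol cultures. None of its 6 probe sets passed between the cell types. Timp4 ranged from 4.11 to 4.42, with differences of -0.06 (adjusted p = 0.857) and 0.11 (adjusted p = 0.863). The inhibitors were thus split, with Timp1 and Timp3 higher in CD44+ cells and no call for Timp2 or Timp4.

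Among the metalloproteinases, Mmp2, gelatinase A, read 6.42, 6.3 and 6.66 in c-kit+ control and 8.68, 7.9 and 9.04 in CD44+ control arrays. With estradiol it read 6.74, 6.54 and 6.64 in c-kit+ and 9.16, 8.4 and 9.09 in CD44+ arrays. No c-kit+ array reached the lowest CD44+ array. The difference was -2.08 in control (SE 0.25, 4.22-fold lower in c-kit+ cells, adjusted p = 9e-04) and -2.24 in estradiol cultures (SE 0.25, 4.74-fold, adjusted p = 0.000431). Both Mmp2 probe sets passed in each culture.

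Mmp23, a membrane-bound member without the usual hemopexin domain, read 5.82, 5.93 and 5.79 in c-kit+ control and 7.51, 6.89 and 7.57 in CD44+ control arrays. The estradiol values were 6.3, 5.51 and 6.15 in c-kit+ and 7.53, 7.55 and 7.4 in CD44+ arrays. These groups also stood apart. Mmp23 was 2.79-fold lower in c-kit+ control cells (log2 difference -1.48, SE 0.2, adjusted p = 0.00169) and 2.84-fold lower with estradiol (-1.51, SE 0.2, adjusted p = 0.0011), and its second probe set passed too (-2.15 and -2.3).

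Mmp16, a membrane-type metalloproteinase, did not pass, although its groups did not overlap. Its values were 3.55, 3.63 and 3.32 in c-kit+ and 4.01, 4.06 and 4.76 in CD44+ control arrays, a difference of -0.78 (SE 0.22, adjusted p = 0.103). With estradiol the difference was -0.52 (SE 0.22, adjusted p = 0.428). The other Mmp16 probe sets differed by -0.11, -0.2 and 0.09 in control and -0.01, -0.17 and 0.18 in estradiol cultures, and none passed. All c-kit+ values of Mmp16 were under the highest Y-linked value of 3.98. Groups were apart for 7 of 30 uncalled members in control cultures, including Adamts3 (0.09) and Mmp10 (-0.06), and for 4 of 27 with estradiol. That share was not counted over all genes. Mmp17, a further membrane-type member, was -0.27 (adjusted p = 0.279) and -0.3 (adjusted p = 0.262) in the 2 cultures. Mmp11 was -0.19 (adjusted p = 0.772) and Mmp20 0.21 (adjusted p = 0.764) in estradiol cultures, and Adamts16 -0.25 (adjusted p = 0.4) in control cultures.

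Among the ADAMTS proteases, Adamts1, which cuts versican and aggrecan, read 5.26, 5.24 and 6 in c-kit+ control and 7.46, 6.74 and 7.43 in CD44+ control arrays. With estradiol it read 5.34, 4.79 and 5.73 in c-kit+ and 8.16, 7.27 and 7.63 in CD44+ arrays. The groups did not overlap. The difference was -1.7 in control (SE 0.29, 3.26-fold lower in c-kit+ cells, adjusted p = 0.00664) and -2.4 in estradiol cultures (SE 0.29, 5.29-fold, adjusted p = 0.000602).

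Adamts5, an aggrecanase whose gene is the neighbour of Adamts1, read 4.66, 4.63 and 5.46 in c-kit+ and 6.1, 5.53 and 6.43 in CD44+ control arrays. With estradiol the values were 4.98, 4.62 and 5.04 in c-kit+ and 6.36, 5.8 and 6.54 in CD44+ arrays. All CD44+ arrays lay above all c-kit+ arrays. Adamts5 just missed the threshold in control cultures (-1.1, SE 0.27, adjusted p = 0.0519) and passed with estradiol (-1.35, SE 0.27, adjusted p = 0.014). Of its other 3 probe sets, 2 passed in control cultures (-1.35, adjusted p = 0.00903, and -0.89, adjusted p = 0.0323). With estradiol the first of these did not pass (-0.93, adjusted p = 0.0663) and the second did (-0.92, adjusted p = 0.0222). The dimmest probe set did not pass with estradiol either (0.16, adjusted p = 0.707). The estradiol call was lost without c-kit+ estradiol replicate 2 (adjusted p = 0.0927), CD44+ estradiol replicate 1 (0.0771) or CD44+ estradiol replicate 3 (0.083).

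Adamts4, the other classical aggrecanase, was not called between the cell types in control cultures. Its control values were 5.44, 5.56 and 5.73 in c-kit+ and 6.12, 5.57 and 5.94 in CD44+ arrays, which overlap (-0.3, SE 0.17, adjusted p = 0.494). Its estradiol values were 5.62, 5.32 and 5.96 in c-kit+ and 6.61, 6.51 and 6.83 in CD44+ arrays. With estradiol the groups stood apart, at -1.02 (SE 0.17, 2.03-fold lower in c-kit+ cells, adjusted p = 0.00506), and its second probe set also passed there (-0.68, adjusted p = 0.0131).

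Adamts12, which has been tied to cartilage matrix turnover, differed least among the called genes. Its estradiol values were 3.98, 3.92 and 4.08 in c-kit+ and 4.69, 4.38 and 4.55 in CD44+ arrays (-0.55, SE 0.13, adjusted p = 0.0371). Those c-kit+ values lay close to the highest Y-linked value of 3.98. The control values, 3.91, 4.1 and 4.19 against 4.39, 4.42 and 4.76, did not overlap but did not pass (-0.45, adjusted p = 0.0996). Its second, dimmer probe set did not show the estradiol-culture difference (0.11, adjusted p = 0.837), and the call was lost under median centring (adjusted p = 0.0826). It was also lost in 7 of the 12 fits that left out 1 array: c-kit+ control replicate 2, any c-kit+ estradiol array, CD44+ control replicate 2, or CD44+ estradiol replicate 1 or 3 (adjusted p up to 0.202).

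Stroma markers and an RNA quality measure also differed between these groups. On CD44+ control arrays, replicate 2 was the lowest for 7 of the 8 genes, and on CD44+ estradiol arrays replicate 2 was again the lowest for 7 of 8. The mean of the 10 stroma markers was lowest on those same arrays, at 6.58 and 6.86. Replicate 2 of the c-kit+ estradiol arrays was likewise the lowest of its group for all 8 genes. Its stroma mean of 5.11 was also the lowest of that group. Among c-kit+ control arrays the lowest replicate varied from gene to gene. Of the stroma markers, 6 of 10 were called lower in c-kit+ control cells (median of the list -1.8), where 2.3% of all genes were called. With estradiol 7 of 10 were called lower (median -1.93), where 2.65% of all genes were called. Values of Lum, Dcn and Thy1 overlapped between the cell types in both cultures. The mean 3′ minus 5′ value of Gapdh was 5.07 on c-kit+ and 3.64 on CD44+ control arrays, and 4.99 and 3.71 on estradiol arrays. The part of either in these differences was not tested. When both CD44+ replicate 2 arrays were left out, which was chosen after the data were seen, 6 members were called in control cultures, the same 5 and Adamts5, and 7 of the 8 in estradiol cultures, all but Adamts12; of all 18193 genes, 400 and 423 were then called.

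**Figure D2:**
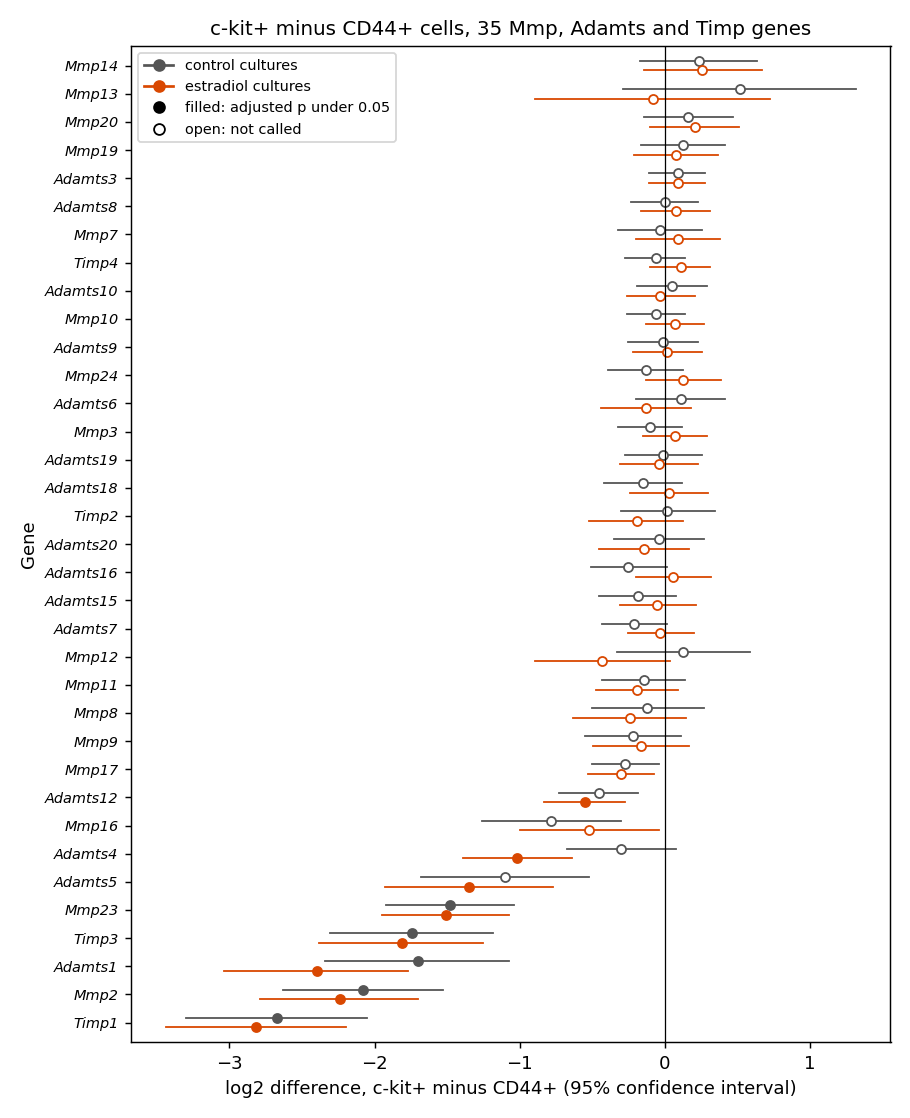
Log2 difference of each of the 35 genes between c-kit+ and CD44+ cells (horizontal axis, c-kit+ minus CD44+), in control cultures (grey) and estradiol cultures (orange), with 95% confidence intervals from limma over 12 arrays. Filled points passed the adjusted p of 0.05; all filled points lie left of 0, from -0.55 for Adamts12 to -2.82 for Timp1.

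Mmp12, Mmp13, Mmp8, Mmp9 and Mmp14 did not pass between the cell types in either culture. Mmp12, the macrophage elastase, read 10.69, 10.28 and 11.18 in c-kit+ control, 10.47, 10.62 and 10.58 in c-kit+ estradiol, 10.86, 10.7 and 10.21 in CD44+ control and 10.81, 11.26 and 10.88 in CD44+ estradiol arrays. The control groups overlapped (0.13, 95% interval -0.33 to 0.59, adjusted p = 0.868). With estradiol the groups did not overlap, yet the difference did not pass (-0.43, -0.89 to 0.04, adjusted p = 0.576).

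Mmp13, a collagenase of bone and cartilage, varied most among arrays of one group. It read 10.01, 8.94 and 10.24 in c-kit+ control, 10.44, 9.9 and 9.8 in c-kit+ estradiol, 10.1, 8.93 and 8.62 in CD44+ control and 10.33, 10.27 and 9.78 in CD44+ estradiol arrays. Its cell-type difference was 0.52 in control (95% interval -0.29 to 1.32, adjusted p = 0.612) and -0.08 in estradiol cultures (-0.89 to 0.73, adjusted p = 0.985). These intervals allow differences of over 1 on the log2 scale in control cultures.

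Mmp8, the neutrophil collagenase, lay between 6.73 and 7.54, and Mmp9, gelatinase B, between 4.72 and 5.6. The mean of the 9 measured neutrophil markers was 4.4 to 4.68 on c-kit+ and 4.72 to 5.03 on CD44+ arrays. None of the 9 passed between the cell types, and their median difference was -0.24 in control and -0.12 in estradiol cultures. Differences for Mmp8 were -0.12 (adjusted p = 0.853) and -0.24 (adjusted p = 0.8), and for Mmp9 -0.22 (adjusted p = 0.593) and -0.16 (adjusted p = 0.882). Mmp14, the membrane-type collagenase that activates pro-Mmp2, differed by 0.24 (95% interval -0.17 to 0.64, adjusted p = 0.654) in control and 0.26 (-0.14 to 0.67, adjusted p = 0.781) in estradiol cultures. The 2 gelatinases therefore differed in their calls: Mmp2 passed in both cultures and Mmp9 in neither.

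**Figure D3:**
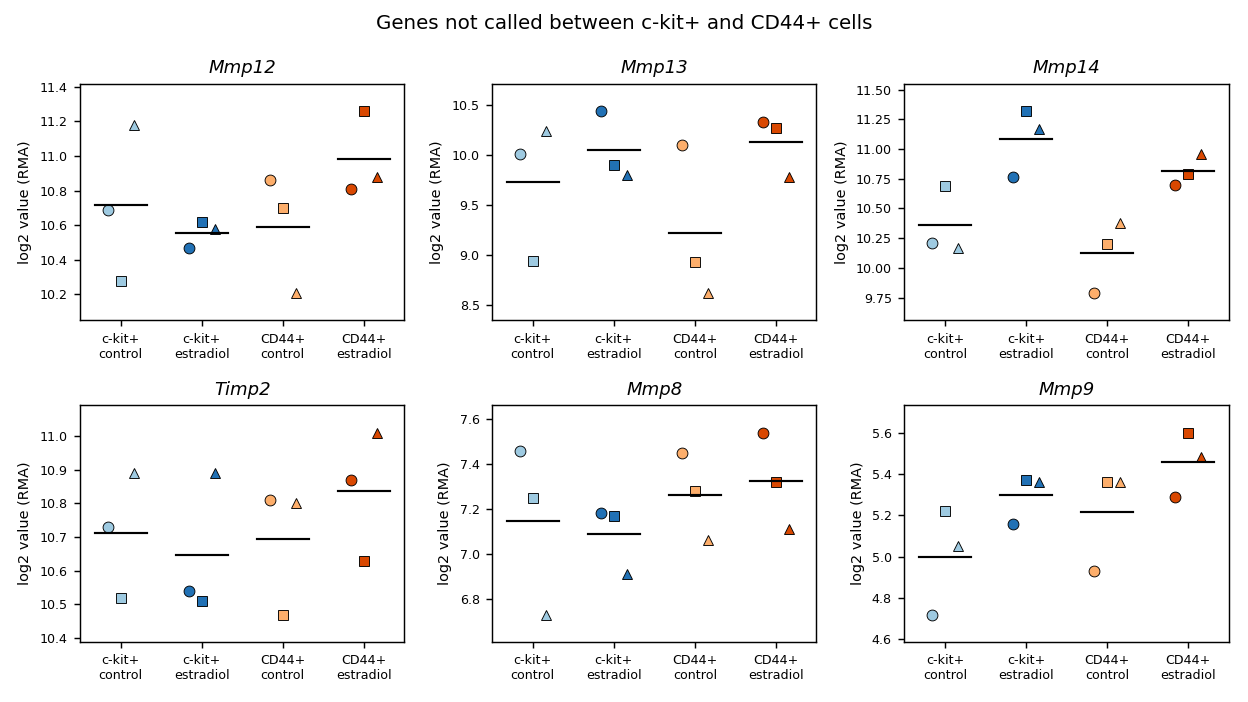
Log2 RMA values (vertical axis) of Mmp12, Mmp13, Mmp14, Timp2, Mmp8 and Mmp9 on each of the 12 arrays; circles, squares and triangles are replicates 1, 2 and 3, and black lines are group means. For Mmp14 the estradiol arrays of each cell type sit above its control arrays, with group means of 11.08 against 10.36 in c-kit+ and 10.81 against 10.12 in CD44+ cells.

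With estradiol, Mmp14 was the member whose chosen probe set passed over both cell types; a second probe set of Adamts4, described below, passed as well. It read 10.21, 10.69 and 10.17 in c-kit+ control and 10.76, 11.32 and 11.17 in c-kit+ estradiol arrays. In CD44+ cells it read 9.79, 10.2 and 10.38 in control and 10.7, 10.79 and 10.96 in estradiol arrays. Every estradiol array was above every control array of its cell type. Averaged over both cell types the rise was 0.71 (SE 0.13, 95% interval 0.42 to 0.99, 1.63-fold, adjusted p = 0.0211). This was 1 of 35 members called, 2.9%, against 0.951% of all genes.

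Within a cell type the same rise did not pass: 0.72 in c-kit+ cells (SE 0.19, adjusted p = 0.313) and 0.69 in CD44+ cells (SE 0.19, adjusted p = 0.292). The difference between the 2 effects was 0.03 (SE 0.26, 95% interval -0.54 to 0.6, adjusted p = 1). The other 2 Mmp14 probe sets had positive effects over both cell types that did not pass (0.59, adjusted p = 0.274, and 0.46, adjusted p = 0.113). The call ended under quantile normalization (0.61, adjusted p = 0.148), and without c-kit+ control replicate 1 (0.0543), c-kit+ estradiol replicate 2 (0.0779) or 3 (0.0663), or CD44+ estradiol replicate 2 (0.0638) or 3 (0.0793), where the values in brackets are adjusted p.

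No member passed in c-kit+ cells alone, where 0.181% of all genes did, or in CD44+ cells alone, where 0.291% did. At an unadjusted p under 0.05 the counts were 1 of 35 in c-kit+ cells (4.47% of all genes) and 3 of 35 in CD44+ cells (5.38% of all genes). No member, and 0 of all 18193 genes (0%), passed for a difference between the 2 estradiol effects; 1 member (Adamts4) and 296 genes had an unadjusted p under 0.05.

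Adamts4 came closest in CD44+ cells. From the control values given above (6.12, 5.57 and 5.94) it stood at 6.61, 6.51 and 6.83 with estradiol, with no overlap, a difference of 0.78 (SE 0.17, 1.71-fold, adjusted p = 0.124). In c-kit+ cells its difference was 0.06 (SE 0.17, adjusted p = 0.999). The difference of these effects was -0.72 (SE 0.25, 95% interval -1.25 to -0.19, adjusted p = 1). With the replicate number as a block, Adamts4 passed in CD44+ cells (0.78, adjusted p = 0.0265), and 101 genes passed in all against 53 without the block.

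The second Adamts4 probe set read 4.08, 3.91 and 4.22 in c-kit+ control and 4.56, 4.52 and 4.63 in c-kit+ estradiol arrays. In CD44+ cells it read 4.53, 4.62 and 4.19 in control and 5.18, 5.17 and 5.4 in estradiol arrays. This probe set was higher on every estradiol array than on the control arrays of its cell type, unlike the first in c-kit+ cells. In the fit of all probe sets it passed in CD44+ cells (0.8, SE 0.13, adjusted p = 0.0253) and over both cell types (0.65, SE 0.09, adjusted p = 0.00358), and was 0.5 in c-kit+ cells (adjusted p = 0.321).

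Other members with the smallest p-values did not pass. Mmp13 was 0.91 higher with estradiol in CD44+ cells (SE 0.37, 95% interval 0.1 to 1.72, adjusted p = 0.845), where 1 control array, at 10.1, lay within the estradiol range. Mmp9 was 0.27 higher over both cell types (SE 0.11, adjusted p = 0.557), Mmp24 0.25 higher in c-kit+ cells (SE 0.12, adjusted p = 0.999) and Adamts1 0.48 higher in CD44+ cells (SE 0.29, adjusted p = 0.949). Mmp12 was 0.39 higher in CD44+ cells (SE 0.21, adjusted p = 0.949), and Mmp2 0.26 (SE 0.18, adjusted p = 0.929) and Mmp24 0.12 (SE 0.08, adjusted p = 0.938) higher over both. In c-kit+ cells Adamts16 was 0.17 (SE 0.12) and Timp4 0.14 (SE 0.1) higher, both with an adjusted p of 0.999. For the difference of effects, Mmp12 stood at -0.56 (SE 0.3), Adamts16 at 0.31 (SE 0.17), Adamts1 at -0.7 (SE 0.42) and Mmp24 at 0.26 (SE 0.17), each with an adjusted p of 1. The inhibitors had effects over both cell types of 0.25 for Timp1 (adjusted p = 0.968), 0.04 for Timp2 (0.986), 0.06 for Timp3 (0.986) and 0.06 for Timp4 (0.98). The other Timp3 probe sets had larger effects that did not pass in the fit of all probe sets. These were 0.47 (SE 0.14, adjusted p = 0.288), 0.24 (adjusted p = 0.936) and 0.1 (adjusted p = 0.916). The median effect of all 35 members was 0.031 over both cell types, beside 0.015 for all genes.

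**Figure D4:**
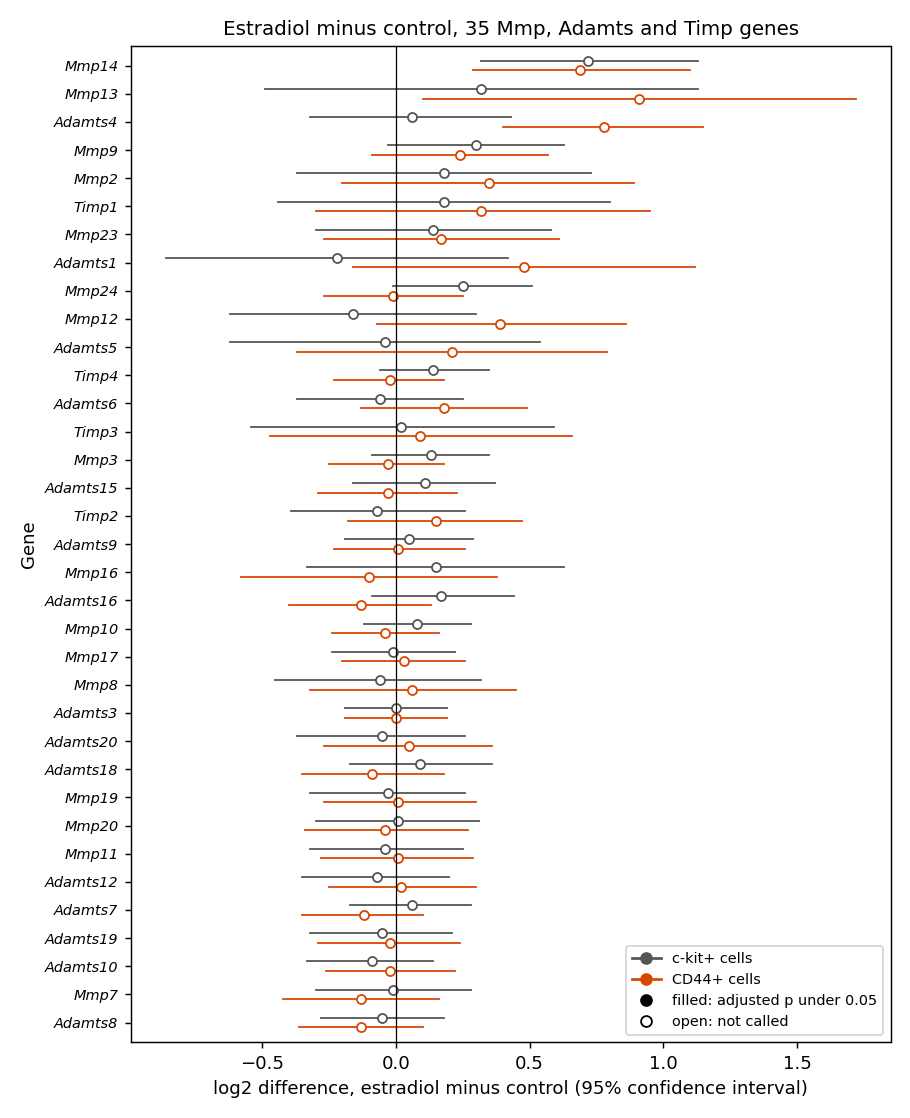
Log2 difference of each of the 35 genes between estradiol and control cultures (horizontal axis, estradiol minus control), in c-kit+ cells (grey) and CD44+ cells (orange), with 95% confidence intervals from limma. All points are open, since none passed within a cell type; the effects run from -0.22 (Adamts1, c-kit+ cells) to 0.91 (Mmp13, CD44+ cells).

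The 13 other members (Adamts7, Adamts8, Adamts9, Adamts10, Adamts16, Mmp7, Mmp10, Mmp11, Mmp16, Mmp17, Mmp19, Mmp24 and Timp4) read between 3.32 and 6.48. Their range over the 12 arrays was at most 1.45, in Mmp16. Their estradiol effects lay between -0.13 and 0.25 and their cell-type differences between -0.78 and 0.13. The 8 members at or under the Y-linked level had estradiol effects between -0.09 and 0.18 and cell-type differences between -0.18 and 0.21.

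Genes that activate, inhibit or induce these enzymes were followed in lists drawn from general knowledge. The lists were chosen with earlier results of these data known, so their counts are descriptions and not independent support. Of 6 measured genes of the plasminogen system, which activates several pro-Mmps, 2 rose over both cell types with estradiol, where 0.951% of all genes were called: Plat, tissue plasminogen activator (0.66, SE 0.11, adjusted p = 0.00782), and Plaur, the urokinase receptor (0.45, SE 0.09, adjusted p = 0.0307). Of 7 surface partners and inducers, 1 rose, Sdc1 (0.65, SE 0.12, adjusted p = 0.0183). None of 4 proprotein convertases, such as Furin, passed in any comparison. Of 11 measured cytokine and transcription factor genes known to induce Mmp and Adamts genes, 3 rose over both cell types, against the same background: Il1b (1.23, SE 0.12, adjusted p = 0.000127), Il1a (1.06, SE 0.11, adjusted p = 0.000372) and Tnf (0.66, SE 0.1, adjusted p = 0.0052). Il1b, interleukin 1β, read 10.76 to 11.26 in c-kit+ control and 11.85 to 12.22 in c-kit+ estradiol arrays, and 10.42 to 10.93 against 11.91 to 12.11 in CD44+ cells. The AP-1 genes Fos (0.01, adjusted p = 0.996), Jun (0.27, 0.64), Junb (0.74, 0.463) and Fosl1 (0.37, 0.454) did not pass.

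Between the cell types, 9 of 14 matrix substrates were lower in c-kit+ cells in control cultures (median -2.07; 2.3% of all genes called) and 9 of 14 with estradiol (median -2; 2.65%). In both cultures these were Vcan, Fn1 (fibronectin), Nid1 (nidogen 1) and the collagen genes Col1a1, Col1a2, Col2a1, Col3a1, Col4a1 and Col4a2, with control differences from -0.85 (Col2a1) to -3.37 (Col1a2). Col1a1, Col1a2 and Col3a1 are also among the stroma markers. The other 5 did not pass, with control differences of -0.1 for Acan, -0.07 for Bcan, 0.04 for Eln, 0.14 for Comp and -0.23 for Vwf. Versican (Vcan), a substrate of Adamts1, Adamts4 and Adamts5, was 8.04-fold lower in c-kit+ control cells (-3.01, SE 0.37, adjusted p = 0.000913), while aggrecan (Acan) read 4.45 to 5.06 on all arrays. Reck, a membrane-anchored inhibitor of several Mmps, was lower as well (-1.31, SE 0.22, adjusted p = 0.00573 in control; -1.25, adjusted p = 0.00621 with estradiol). Of 7 surface partners and inducers, 2 were lower in c-kit+ cells in each culture: Thbs1, thrombospondin 1, a partner of Mmp2 and Mmp9 (-2.12, adjusted p = 0.00366, and -2.55, adjusted p = 0.000837), and Sdc1, the heparan sulfate proteoglycan syndecan 1 (-1.08, adjusted p = 0.00375, and -1.42, adjusted p = 0.000497). Plat was lower in c-kit+ cells in estradiol cultures (-0.71, SE 0.15, adjusted p = 0.023). Of the other matrix-degrading proteases, Hpse, heparanase, was higher in c-kit+ control cells (1.45, SE 0.31, adjusted p = 0.0271) and Ctsk, the collagen-cutting cathepsin K, lower in c-kit+ estradiol cells (-0.96, SE 0.2, adjusted p = 0.0169). None of 7 Adam proteases passed in any comparison.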

How the data were processed

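Values were the authors' deposited log2 expression values of 12 Affymetrix mouse arrays, made with RMA per the submitters' processing notes (version not given in the sources used here); RNA went through a two-cycle amplification from a small amount of total RNA, per the labels' protocols, which shortens transcripts. With 3 arrays a group, array number sets the precision. Of 45101 probe sets, 34945 named 1 gene, and each gene took its probe set brightest over the 12 arrays (18193 genes, no filter). Arrays correlated at 0.976 to 0.9965 and none were identical. The platform annotation can be old.

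limma 3.58.1 (R 4.3.3) was fitted with 1 mean per group over all 12 arrays, two-sided, Benjamini-Hochberg adjusted over all genes, threshold 0.05; it was tested on simulated data. Probe sets were fitted together in a separate model. Figures used Python 3.11.15 and matplotlib 3.10.9. The labels do not say that replicates are separate animals or cultures, so p-values measure the spread among these samples. The members and gene lists were chosen with earlier results of these data known. Named were all called members, the 5 of smallest p among the rest in each comparison, all TIMPs, and called genes of the pathway lists, others there by counts; Fos, Jun, Junb, Fosl1, uncalled matrix substrates and the other members given in full were added after their values were seen.

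Same-numbered arrays deviated together (correlation over 0.1 in every pair) between CD44+ control and CD44+ estradiol arrays (0.303, 0.368 and 0.322). They also did between c-kit+ and CD44+ estradiol arrays (0.447, 0.192 and 0.312) and between c-kit+ estradiol and CD44+ control arrays (0.31, 0.142 and 0.213). Between c-kit+ control and estradiol arrays the values were 0.345, 0.092 and 0.253. Each was above the best value of that c-kit+ control array with another number. Values were mixed between c-kit+ control and CD44+ control arrays (0.175, 0.122 and -0.208) or CD44+ estradiol arrays (0.263, -0.059 and 0.158). The main fit had no block for replicate number. Alternatives covered probe set choice, a level filter, scaling, moderation, array weights, the replicate block and leaving out arrays.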

Additional observations from a re-analysis of the deposited data

How the results depend on the processing

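Under the alternatives, 854 of 890 values of named members kept their direction and their side of the threshold, 20 lost a call, 16 gained one and 0 reversed. Many of the 890 values belong to members far from the threshold, which could hardly change side. All 20 losses fell on Mmp14 over both cell types and on Adamts12 and Adamts5 between cell types in estradiol cultures. With the replicate block, 1 member (Adamts4) was called in CD44+ cells with estradiol, and the block ended no call of a member; it added Adamts5 between cell types in control cultures (6 members). The count for estradiol in CD44+ cells was also 1 (Adamts4) with the mean of all probe sets and 7 with array weights (Adamts1, Adamts4, Mmp2, Mmp13, Mmp14, Mmp23 and Timp1), where 1405 genes were called in all. Over both cell types it was 2 (Mmp14 and Adamts4) with the mean of probe sets and with array weights, 0 with quantile normalization, 0 without both CD44+ replicate 2 arrays (80 genes in all), and 0 to 1 when 1 array was left out; the cause was not tested. For c-kit+ against CD44+ cells in estradiol cultures it was 5 when genes under the median level were left out, since Adamts4, Adamts5 and Adamts12 fall outside that filter, and 6 to 8 when 1 array was left out; in control cultures leaving out 1 array gave 5 to 6. Median centring moved the median of all genes between cell types in control cultures from 0.005 to 0.104 and reversed no named member. Over the alternatives at the same threshold, the number of all genes called ran from 2 to 62 for estradiol in c-kit+ cells (33 as reported), 9 to 1405 in CD44+ cells (53), 80 to 523 over both (173), 196 to 1058 between cell types in control cultures (418) and 250 to 779 in estradiol cultures (483), and stayed at 0 for the difference of estradiol effects. A fall in the 8 members at or under the Y-linked level could hardly show on these arrays, and the 3 arrays a group leave intervals that allow moderate effects in members that did not pass.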

Other observations

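Relatives outside the symbol rule were measured too. Mmp1a and Mmp1b, the mouse interstitial collagenase genes that lie among the chromosome 9 Mmp genes, read 2.96 to 3.53 and 3.18 to 3.52 on the 12 arrays, under the highest Y-linked value of 3.98. The Adamtsl genes resemble ADAMTS proteins but lack the protease domain. Adamtsl4 read 4.12, 4.05 and 4.27 in CD44+ control and 4.59, 4.37 and 4.56 in CD44+ estradiol arrays, without overlap. In c-kit+ cells it read 3.95 to 4.19. Adamtsl2 was lower with estradiol in c-kit+ cells, at 6.06, 5.7 and 5.97 against 6.12, 6.44 and 6.07, also without overlap. So was Mmp1b, at 3.23, 3.27 and 3.21 against 3.52, 3.28 and 3.5. No test of these relatives is given, and the share of all genes without overlap was not counted. Adamtsl2 read 5.7 to 6.44 and Adamtsl3 4.77 to 5.61 over all arrays. Outside the protease lists, Acp5, the tartrate-resistant acid phosphatase that marks osteoclasts and some macrophages, rose by 0.87 with estradiol over both cell types (limma, adjusted p = 0.00261), but it was the 1 of 7 osteoclast markers called; the list's median was 0.12, and Ctsk (0.37, adjusted p = 0.493), Calcr (-0.02, 0.988), Itgb3 (-0.07, 0.986) and Atp6v0d2 (-0.12, 0.981) did not pass. Cd14, a macrophage receptor for bacterial products, rose by 0.43 (adjusted p = 0.0148), as 1 of 8 macrophage markers with effects from -0.08 and a median of 0.09.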
